A study of Solanum lycopersicum with 12 samples.

Results

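Transcript levels in tomato roots titled as exposed to cadmium (Cd) were compared with those in leaves titled the same way. These are 6 of the 12 arrays of the series: 3 of root Cd and 3 of leaf Cd. The other 6 are 3 of root and 3 of leaf tissue without Cd, titled ck, and are called controls here. All are tomato (Solanum lycopersicum) of a genotype the labels leave unnamed, and neither plant age, Cd dose nor exposure time is given. Nothing in the labels ties an array to its own plant, so p-values measure only the spread between arrays, which may be technical. The source label of the 3 leaf Cd arrays calls those leaves untreated, against their title. They were grouped by title. The calls of 152 genes were followed across settings, and those lost when all 6 leaf arrays are taken as untreated are pointed out where they occur. For other genes named here, the lack of such a remark does not mean that the call was kept.

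Roots take up mineral nutrients and, with them, Cd, a toxic metal that enters through carriers for iron and other metals and is bound inside the cell by sulfur-rich molecules such as glutathione, phytochelatins and metallothioneins. Leaves carry out photosynthesis and build chlorophyll-binding and carotenoid-protected membranes. The transcriptomes of any root and leaf differ, so the control organs are compared as well, after the differences under Cd.

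All 10038 probe sets that are not array controls were tested. Of these, 909 (9.06%) carry a gene symbol, for 801 genes. Values are log2 units relative to the median of their own array, so that 0 is the array median. The medians as deposited were 7.46 to 7.5 in roots and 6.85 to 6.89 in leaves, and centring takes 0.62 off each root minus leaf difference. A leaf excess smaller than that therefore has the opposite sign as deposited. Arrays of the root Cd group correlated with each other at 0.979 to 0.988, those of leaf Cd at 0.960 to 0.976, and arrays of the 2 groups with each other at 0.827 to 0.884. The median SD of a probe set was 0.19 in root Cd and 0.28 in leaf Cd, against 0.15 and 0.16 in the controls. Between 87.1% and 90.2% of probe sets on an array lay above background, the highest of 23 negative control probe sets.

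Roots and leaves differed widely under Cd. Of the 10038 probe sets, 4612 (45.9%) passed an adjusted p of 0.05 (limma, Benjamini-Hochberg over all probe sets). Higher levels in root were called for 2184 (21.8%) and higher levels in leaf for 2428 (24.2%). The 3 root Cd and 3 leaf Cd values did not overlap at 5220 probe sets (52%), 4398 of them called. As deposited, without centring, 6193 were called higher in root and 1153 higher in leaf, so the balance between the organs depends on the scaling (84.3% of calls toward root, against 47.4% after centring). The dimmest probe sets move with it too. On all 6 arrays 652 lay at background, and of these 236 were called higher in leaf after centring, and 262 higher in root as deposited. No organ difference is read from genes at background in both organs. Leaving those 652 out, the calls number 2184 toward root and 2192 toward leaf.

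Most called differences were moderate and a minority were very large. The median absolute difference was 0.47 over all probe sets and 1.03 over those called, and the smallest called was 0.27. At least 2-fold differences were called at 2373 probe sets, 1042 of them higher in root and 1331 higher in leaf. At least 4-fold differences were called at 907 (9.04%), 362 toward root and 545 toward leaf. At least 16-fold differences numbered 117 toward root and 102 toward leaf. Of the 4612 calls, 2412 (52.3%) kept their direction and passed the threshold under 13 other settings, the test against a 2-fold difference aside. These include the deposited scale, each of the 6 Cd arrays left out in turn and the leaf arrays grouped by source label. Among these, 274 probe sets were at least 4-fold higher in root and 315 at least 4-fold higher in leaf under every one of those 13.

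**Figure D1:**
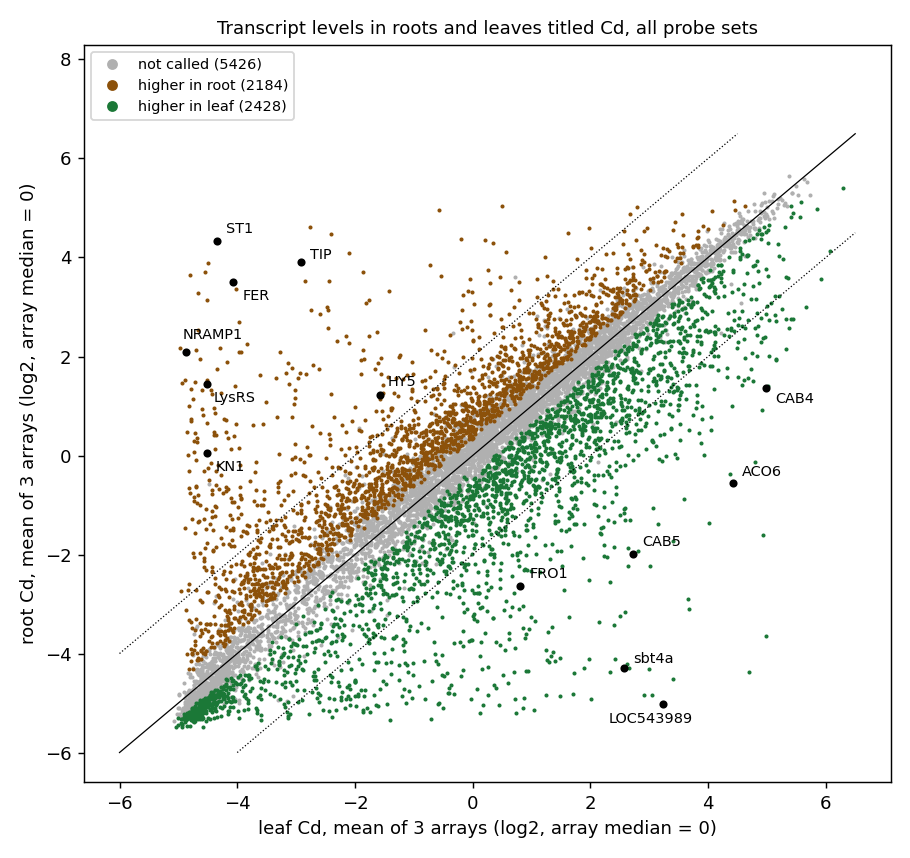
Each point is 1 of the 10038 probe sets, with its mean over the 3 leaf Cd arrays on the x axis and over the 3 root Cd arrays on the y axis, in log2 units with each array's median at 0. Brown points (2184) were called higher in root and green points (2428) higher in leaf. The solid line marks equal levels and the dotted lines 4-fold differences. Genes such as ST1 and LOC543989 lie far from the line, and a cloud of green points at the lower left holds probe sets at background in both organs.

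Among the 801 named genes, 418 (52.2%) were called, 197 higher in root and 221 higher in leaf. Of the 221, 20 lay at background on all 6 Cd arrays, and no gene of the 197 did. The counts by gene list below stand beside these shares and were not tested against them. At least 4-fold differences were called for 60 genes toward root and 61 toward leaf, and at least 16-fold differences for 25 and 15. On all 3 leaf arrays but not in root 27 genes lay at background, 23 lay there in root but not in leaf, and 50 in both. Where 1 organ lay at background the fold is a lower bound, computed from the background level. In the values below, ± after a level is the SD over 3 arrays and ± after a difference is its SE. In whole organs, fewer cells of a type and less RNA per cell cannot be told apart.

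The organ labels were checked with marker genes. All 8 leaf markers, genes of the photosystems and light-harvesting antenna, were higher in leaf, and all were also above background on every root Cd array. Of 7 root markers, FER, NRAMP1, PT2 and ext1 were higher in root. The phosphate transporter PT1 (difference 0.09, 95% interval -0.38 to 0.56) and the ammonium transporter AMT1-2 (-0.07) did not pass. As deposited, both were called higher in root (0.71, adjusted p = 0.0133, and 0.55, adjusted p = 0.0215), so their result depends on the centring. The ferric reductase FRO1 was higher in leaf. Of the trichome markers, the sesquiterpene synthase SSTLE1 was above background on all leaf arrays and on no root array, and the monoterpene synthase MTS1 lay at background on all 6.

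A sulfate transporter, an iron regulator and a metal transporter were among the named genes with the largest root excesses. ST1, a sulfate transporter, read 4.38, 4.08 and 4.57 on the root Cd arrays and -4.38, -4.37 and -4.31 on the leaf Cd arrays. Every leaf value lay at background, and the root level was at least 327-fold higher (log2 difference 8.69 ± 0.17, adjusted p = 2.26e-10).

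NRAMP1, a metal transporter of the natural-resistance-associated macrophage protein family, read 2.42, 1.65 and 2.21 in root and -4.92, -5.07 and -4.63 in leaf. It was at background in all leaf arrays and at least 68.8-fold higher in root (difference 6.96 ± 0.26, adjusted p = 8.4e-09). FER, the bHLH transcription factor that switches on iron uptake in tomato roots, read 3.63, 3.41 and 3.45 in root and -4.43, -3.75 and -4.04 in leaf. Its difference was 7.57 ± 0.17 (190-fold, adjusted p = 2.62e-10), with 1 of 3 leaf arrays above background. Both the regulator and the carrier thus stood far apart in the organs, with no overlap.

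FRO1, which encodes a ferric chelate reductase, went the other way. It read -2.11, -2.95 and -2.83 in root and 0.74, 1.31 and 0.38 in leaf (difference -3.44 ± 0.76, adjusted p = 0.0038). All 6 values lay above background. NRAMP3, a metal transporter of the vacuolar membrane, differed by -0.50 after centring and by 0.12 as deposited, and by 0.12 with the leaf arrays grouped by source label, so it has no settled direction. Of the 7 genes listed for iron and metal handling, 2 were called higher in root and 2 higher in leaf; Nramp2 and the copper chaperones CCH and CCS did not pass.

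The other sulfur genes differed far less than ST1. Of 8 listed, 5 were higher in root, 2 higher in leaf and 1 did not pass. GSH1, which makes the first intermediate of glutathione, read 2.84 ± 0.14 in root and 1.87 ± 0.34 in leaf (n = 3 each; 1.97-fold, limma adjusted p = 0.00214), with a control difference of 0.06 and a change in organ difference that did not pass (adjusted p = 0.156). SAM3, an S-adenosylmethionine synthetase, was 0.75 higher in root, a call that was lost without root Cd 2 (0.58, adjusted p = 0.0515) and by source label (0.44, adjusted p = 0.144). ST2, a second sulfate transporter, differed by -1.23 toward leaf, and its call was lost without root Cd 1 or 3, without leaf Cd 2 or 3, and as deposited (-0.61, adjusted p = 0.171).

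Metallothioneins, small cysteine-rich proteins that bind metal ions, split between the organs. MT2 read 5.07, 4.85 and 4.98 in root and 1.92, -2.96 and -0.68 in leaf (difference 5.54 ± 0.93, adjusted p = 0.000649). The root values lay close together, whereas those of leaf spread over several log2 units. The difference was 4.35 without leaf Cd 2 and 6.79 without leaf Cd 1. MT3 was 15.3-fold higher in root (4.29 ± 0.17 against 0.35 ± 0.19; adjusted p = 0.000364). MTA was 2.19-fold higher in leaf (3.72 ± 0.28 against 4.85 ± 0.14; adjusted p = 0.000308). MT4 differed by -0.44, lost its call when leaf Cd 1 or 3 or root Cd 1 or 3 was left out, lost it by source label too (-0.28, adjusted p = 0.17), and had the opposite sign as deposited (0.17) and at 2 of its other probe sets (0.47 and 0.12, neither called).

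Phosphate and nitrogen genes followed no single direction: of 11, 5 were higher in root, 3 higher in leaf and 3 did not pass. PT2, a phosphate transporter, read -0.90, -0.75 and -0.30 in root and lay at background in leaf (-5.03, -4.93 and -4.51), a difference of at least 10.3-fold (4.17 ± 0.39, adjusted p = 1.39e-05). PT1, its paralogue, was bright in both organs, at 3.85, 3.66 and 3.88 in root and 4.14, 3.52 and 3.45 in leaf, and the values overlapped. The cytosolic glutamine synthetase gts1 was 3.99-fold higher in root (adjusted p = 0.00109), and its plastid counterpart GS2, which reassimilates ammonium from photorespiration, was 3.13-fold higher in leaf (adjusted p = 0.000117). TIP (synonym RB7), an aquaporin of the vacuolar membrane, read 3.87, 3.91 and 3.92 in root and -2.49, -3.46 and -2.76 in leaf (6.81 ± 0.38, adjusted p = 2.26e-07). All leaf values of TIP lay above background. Of 6 potassium channel, pump and exchanger genes, the exchanger NHX2 was higher in root (0.90), and the channel LKT1 (-1.34), the proton pump LHA2 (-0.95) and the exchanger NHX1 (-0.51) were higher in leaf. The call of LKT1 was lost by source label (-0.79, adjusted p = 0.0765), and that of LHA2 as deposited (-0.33). That of NHX1 was lost without leaf Cd 1 or 2 or root Cd 1 and by source label (-0.27, adjusted p = 0.28), and its sign changed as deposited (0.10).

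**Figure D2:**
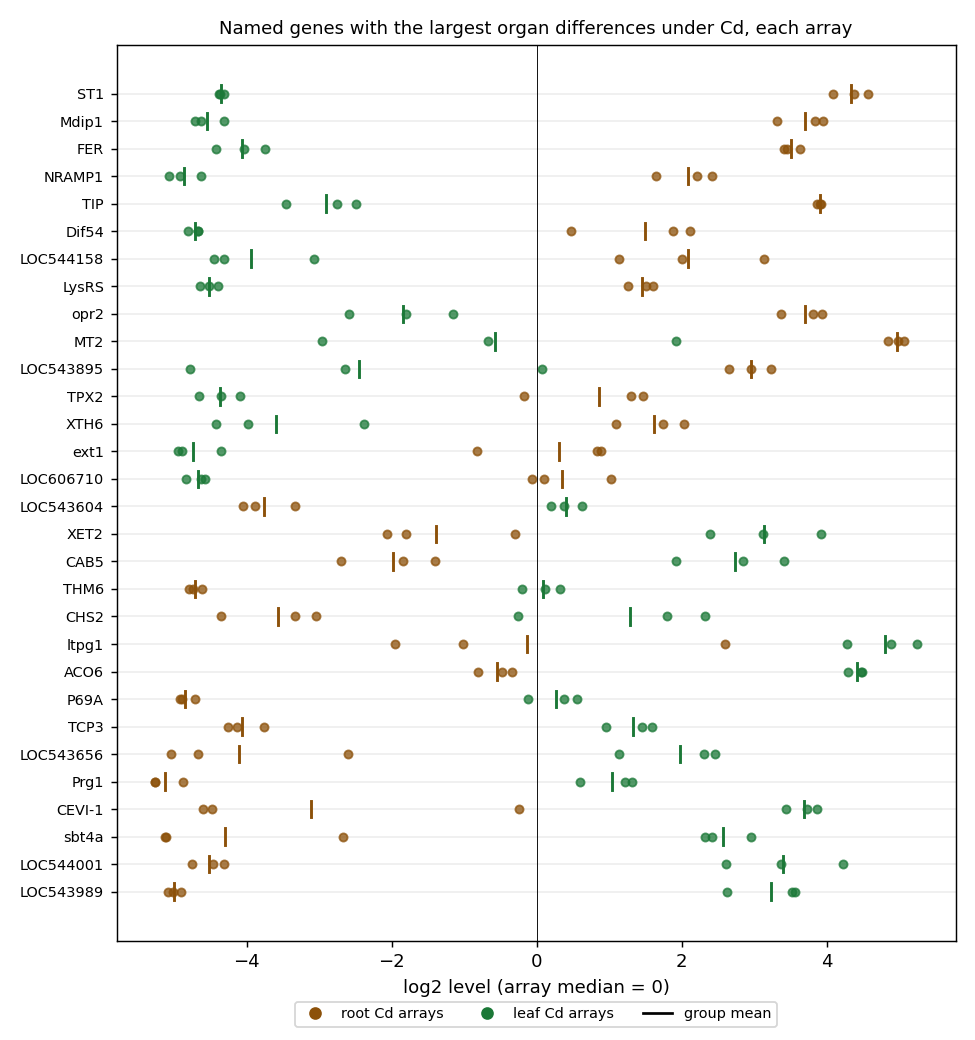
The 15 named genes with the largest called root excess (top) and the 15 with the largest leaf excess (bottom), with each of the 3 root Cd arrays as a brown point and each of the 3 leaf Cd arrays as a green point; short bars are group means and the x axis is log2 relative to the array median. In every row the brown and green points do not overlap, as the selection required. In MT2 and LOC543895 the leaf points spread widely, and in CEVI-1, sbt4a and ltpg1 the root Cd 2 point lies above the other root points.

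Photosystem and light-harvesting genes were called toward leaf throughout. All 9 listed were higher there, with a median difference of -2.12 (0.01 over all probe sets tested) and a range from -0.86 to -4.71. CAB5, a chlorophyll a/b-binding protein of the antenna, read -2.70, -1.84 and -1.40 in root and 1.92, 2.85 and 3.41 in leaf (difference -4.71 ± 0.74, adjusted p = 0.000423). CAB4, of the same family, read 0.65, 2.04 and 1.39 in root and 4.65, 5.02 and 5.30 in leaf (12.4-fold higher in leaf, adjusted p = 8.87e-05). Both were well above background in roots, and no root value reached a leaf value.

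The other 7 had smaller differences. CAB6A was 6.35-fold higher in leaf, and PsbQ, PSBP and PSBO, the proteins of the oxygen-evolving complex, were 5.29-, 4.36- and 3.45-fold higher. Plastocyanin (PETE) was 3.97-fold and photosystem I subunit D (LOC543978, synonym psaD) 3.99-fold higher. PSBR had the smallest difference, at 4.95, 4.92 and 5.09 in root and 5.83, 5.80 and 5.92 in leaf (adjusted p = 7.19e-05), and did not pass as deposited (-0.24, adjusted p = 0.0543). The median of the 9 was -1.41 between the control organs, and none of the 9 passed the test of the change in organ difference. The control roots varied for CAB5, at 0.84, -0.59 and 3.03.

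Carotenoids protect these membranes and give rise to abscisic acid. Of 14 carotenoid genes, 8 were higher in leaf and 2 higher in root, with a median of -0.86. The lycopene epsilon-cyclase CRTL-E-1, at the branch to lutein, was 8.16-fold higher in leaf (-2.24 ± 0.42 against 0.79 ± 0.56; adjusted p = 0.000211). The epoxidase ZEP was 3.44-fold and the lycopene cyclase LCY1 3.26-fold higher in leaf. The exceptions were NSY, annotated for neoxanthin synthesis (2.96-fold higher in root, adjusted p = 0.000897), and Psy1, a phytoene synthase known for fruit ripening (2.54-fold higher in root, adjusted p = 0.00232). Of 4 genes that make the plastid precursors of carotenoids, ISPE and HDS were higher in leaf, by 1.46 and 1.26, and DXR did not pass. As deposited, DXR was called higher in root (0.70, adjusted p = 0.00563). DXS was 0.56 higher in root, a call lost without leaf Cd 1 or 3 or root Cd 1 or 3 and by source label (0.18).

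Light-signalling genes were called in both directions. Of 13, 5 were higher in leaf and 3 higher in root. The transcription factor HY5, which acts in light signalling, read 1.30, 1.0 and 1.36 in root and -1.34, -2.07 and -1.30 in leaf (6.92-fold higher in root, adjusted p = 3.53e-06). Phytochrome A (PHYA), a far-red photoreceptor, was 4.85-fold higher in root (adjusted p = 5.32e-05). The largest fitted leaf excesses on the list were those of CO1, a CONSTANS-like gene (2.58-fold, adjusted p = 0.00379), and of the cryptochrome Cry1b (2.03-fold, lost as deposited at a difference of -0.40, adjusted p = 0.062). Without root Cd 3 the leaf level of CO1 was at least 1.72-fold higher, with the other root arrays at background. Its difference as deposited was -0.75.

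Secreted and wall-bound proteins gave large differences in both directions. All 6 subtilases, serine proteases secreted to the cell wall, were called: 4 toward leaf and 2 toward root. P69A read -0.12, 0.37 and 0.55 in leaf and lay at background in root (-4.89, -4.72 and -4.92), at least 21.3-fold higher in leaf, or 13.9-fold as deposited (adjusted p = 5.36e-09). Its relative sbt4a read 2.42, 2.95 and 2.32 in leaf and -5.11, -2.67 and -5.13 in root (difference -6.87). Root Cd 2 was the only root array above background, and without it the leaf level was at least 104-fold higher. P69B differed by -3.37, a call lost without root Cd 1 (-2.52, adjusted p = 0.0756), without root Cd 3 (-3.02, adjusted p = 0.061) and by source label (-2.18, adjusted p = 0.0993). SBT1 was 12.7-fold higher in root (adjusted p = 2.03e-05).

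Of the peroxidases listed, CEVI-1 and TPX2 stood at opposite ends. TPX2 read 1.30, 1.46 and -0.18 in root and lay at background in leaf (at least 29.2-fold, adjusted p = 1.08e-06). CEVI-1 read 3.86, 3.73 and 3.44 in leaf and -4.48, -0.24 and -4.60 in root (difference -6.78 ± 0.91, adjusted p = 0.000146). Root Cd 2 carried the intermediate value and was the only root array above background. Without it the leaf level was at least 224-fold higher. TPx1 did not pass (0.01), though it was called higher in root as deposited (0.63, adjusted p = 0.000597).

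All 3 lipid transfer proteins, which bind lipids at the cell surface, were higher in leaf: ltpg1 by 4.93, LE16 by 3.65 and TSW12 by 3.19 on the log2 scale. In root, ltpg1 read -1.95, 2.60 and -1.02, again with root Cd 2 highest, and its difference was -6.29 without that array and -4.02 without root Cd 1. The root and leaf values of LE16 overlapped, and its difference ranged from -3.01 without root Cd 3 to -4.87 without root Cd 2. That of TSW12 was -3.79 without root Cd 2.

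Xyloglucan endotransglucosylases, which cut and rejoin wall polymers, differed in both directions. XTH6 read 2.03, 1.74 and 1.09 in root and -3.99, -2.39 and -4.43 in leaf (5.22 ± 0.44, adjusted p = 6.38e-06; 5.83 without leaf Cd 2). XET2 read -2.06, -0.30 and -1.81 in root and 3.12, 2.39 and 3.92 in leaf (-4.54 ± 0.53, adjusted p = 6.14e-05). XTH7 differed by -3.12 (from -2.36 without leaf Cd 3 to -4.01 without leaf Cd 1), and 6 of the 10 did not pass. Among 12 expansins, wall-loosening proteins, 2 were higher in root, 4 higher in leaf and 6 did not pass. EXPA8 lay at background in leaf and was at least 8.0-fold higher in root (adjusted p = 5.28e-05), and EXPA4 was 4.74-fold higher in leaf (adjusted p = 0.000655). EXPA6 was 1.66 higher in root, a call lost without leaf Cd 1 or 2 or root Cd 2 or 3, and another probe set of it differed by 0.19 (not called). The leaf call of EXP5 (-2.29) was lost without leaf Cd 3 (-1.61, adjusted p = 0.116), without root Cd 1 (-1.77) or root Cd 3 (-1.95), and as deposited. The extensin ext1 read 0.88, 0.83 and -0.82 in root and lay at background in leaf (at least 19.8-fold, adjusted p = 1.29e-05).

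Of 20 pectin, cellulose and galactan hydrolases, 4 were higher in root and 7 higher in leaf. The beta-galactosidase TBG3 was 4.72-fold higher in root (adjusted p = 0.000244), and the cellulase cel7 was 6.41-fold higher, at a difference of 2.68 (2.09 without root Cd 2). Cel1, also a cellulase, lay at background in root and was at least 4.17-fold higher in leaf, or 2.72-fold as deposited (adjusted p = 0.00116). Its difference of -2.96 was -2.25 without leaf Cd 2 and -3.60 without leaf Cd 3. PG2, PME2.1 and TAPG1, 3 of the 7 calls toward leaf, were at background in both organs.

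Oxylipin enzymes turn membrane fatty acids into jasmonates and volatile aldehydes. Of 12, 6 were called higher in leaf, 3 higher in root and 3 did not pass. The 12-oxophytodienoate reductase opr2 read 3.94, 3.37 and 3.81 in root and -1.16, -2.59 and -1.81 in leaf (5.56 ± 0.43, adjusted p = 3.22e-06). The lipoxygenase LOX1.1 was 3.32 higher in root on the log2 scale (adjusted p = 0.000105). In leaf, loxC, a plastid lipoxygenase, was above background on all arrays and at background in root (at least 4.43-fold, or 2.89-fold as deposited; adjusted p = 1.73e-05). HPL, the hydroperoxide lyase that makes leaf aldehydes, was 3.43-fold higher in leaf (adjusted p = 8.7e-05). The divinyl ether synthase DES read 3.97, 3.42 and 3.41 in root and 2.24, -1.74 and 1.65 in leaf, and at 2.88 did not pass (adjusted p = 0.0516). It passed without leaf Cd 1 (3.64, adjusted p = 0.0279), as deposited, with array weights, after quantile normalization and by source label. Of LOXB, called toward leaf, all values lay at background.

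Of 12 pathogenesis-related genes, which act in defence, 1 was higher in root, 4 higher in leaf and 7 did not pass. Of those 7, PR-P2 (-3.12) passed without leaf Cd 2 (-4.49, adjusted p = 0.0349), CHI3 (-1.74) also without leaf Cd 2 (-2.72, adjusted p = 0.00804), and PR1b1 (-1.48) without root Cd 2 (-2.28, adjusted p = 0.00997) and with array weights (-2.65, adjusted p = 0.0214). The chitinase CHI17 read -1.74, -0.72 and -1.44 in root and 4.20, 1.57 and 2.25 in leaf (15.7-fold, adjusted p = 0.000271), a difference of -3.97 that was -3.21 without leaf Cd 1. TSI-1 was 7.13-fold higher in root (2.83, and 3.47 without leaf Cd 1; adjusted p = 0.00182). P4, of the PR-1 family, read -0.57, 3.86 and 2.65 in root and 4.04, 1.46 and 2.35 in leaf, and the values overlapped. Among 10 proteinase inhibitors and wound proteins, 2 were higher in root and 3 in leaf. The inhibitor ARPI lay at background in root and was at least 5.65-fold higher in leaf, or 3.69-fold as deposited (adjusted p = 0.0107). The leucine aminopeptidase LAPA1 differed by -3.01, with its call lost without leaf Cd 3 (-2.56, adjusted p = 0.0575) and a difference of -3.72 without leaf Cd 2. ARG2, an arginase, lay at background in root and was at least 4.44-fold higher in leaf, or 2.89-fold as deposited, whereas another probe set of it differed by 0.46 toward root (not called). LOC606710, a polyphenol oxidase (synonym ppo), was at least 20.5-fold higher in root by the probe set used, and 0.38 higher by another that did not pass (adjusted p = 0.111).

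**Figure D3:**
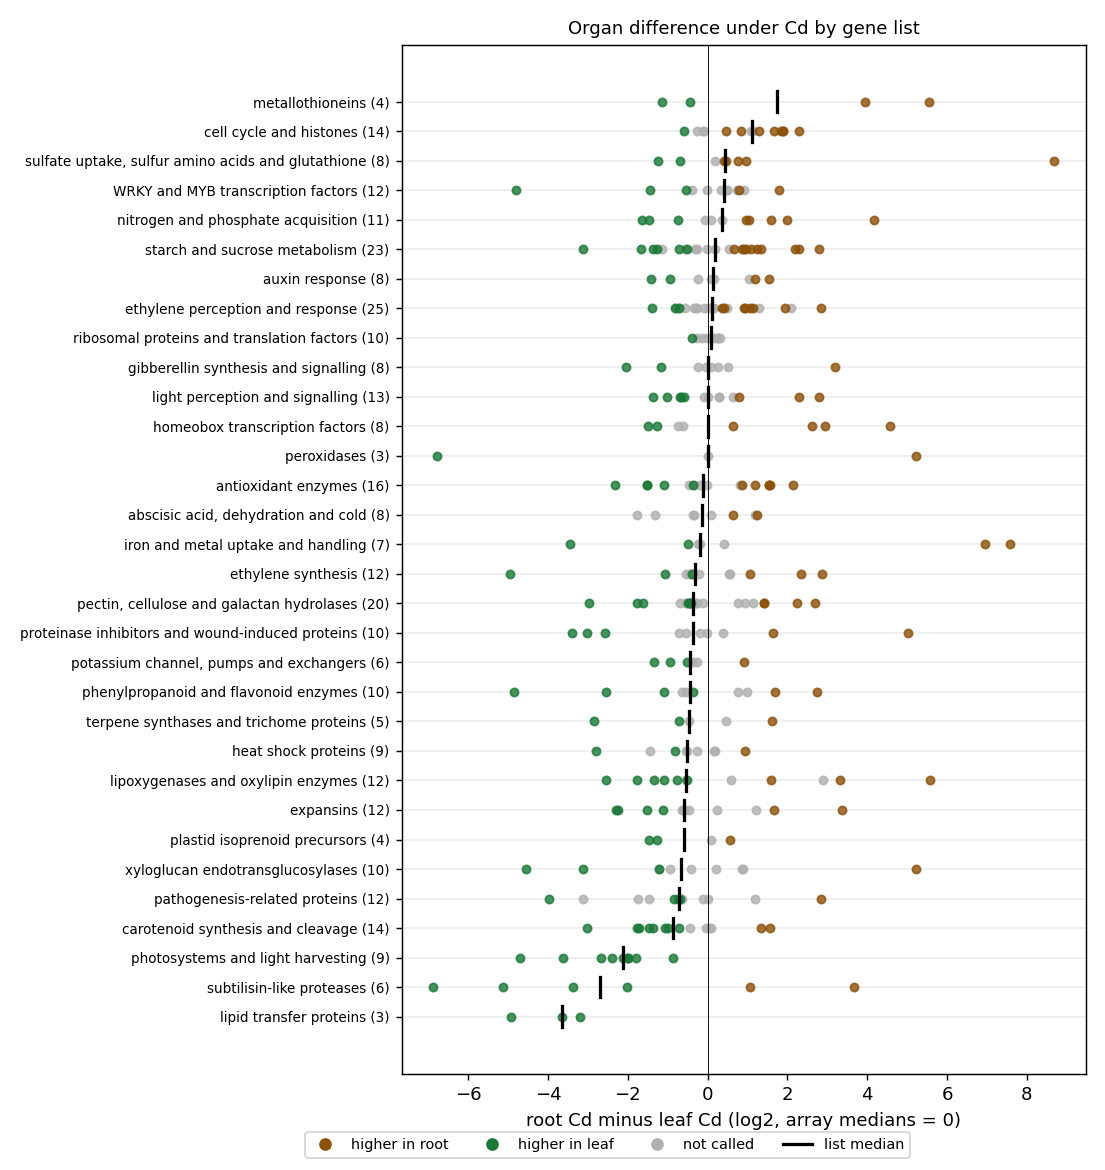
Root Cd minus leaf Cd difference of each member of the gene lists, on a log2 scale with array medians at 0, with the number of measured genes in brackets. Brown points were called higher in root, green points higher in leaf and grey points were not called; black bars are list medians. Photosystem genes and lipid transfer proteins lie on the leaf side throughout, ribosomal genes lie close to 0, and most lists spread to both sides.

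Ethylene is made from ACC by ACC oxidases (ACO) and sensed by the ETR receptors. ACO6 read -0.34, -0.81 and -0.48 in root and 4.29, 4.47 and 4.49 in leaf (31.2-fold higher in leaf, adjusted p = 3.53e-09). By the probe set used its difference was -4.96, and by its other probe sets -6.55 and -6.56. ACO5 read 4.72, 3.83 and 4.92 in root and 0.92, 2.22 and 1.73 in leaf (7.29-fold higher in root, adjusted p = 0.0001). The 2 enzymes thus differed in opposite directions, with no overlap in either. Of 12 synthesis genes, 3 were higher in root, 3 higher in leaf (ACS5 among them at background in both organs) and 6 did not pass. ACS1A, an ACC synthase, was 2.33 higher in root (2.92 without leaf Cd 1). Of 25 perception and response genes, 8 were higher in root, 3 higher in leaf and 14 did not pass. Receptors made up 5 of the 8, led by ETR6 (7.13-fold, adjusted p = 0.000609) and ETR4 (3.87-fold, adjusted p = 0.000569), and the CTR1 and CTR3 kinases, which act below the receptors, were 2.08- and 1.92-fold higher in root. Toward leaf the largest was EIL4, an EIN3-like transcription factor (2.64-fold, adjusted p = 1.98e-05).

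Other hormone lists were small and mixed. Of 8 gibberellin genes, the 20-oxidase 20ox-3 was 9.14-fold higher in root (adjusted p = 5.78e-05). Without leaf Cd 1 the root level of 20ox-3 was at least 6.39-fold higher, with the other leaf arrays at background. GA20OX1 (-2.04) and 3OH-2 (-1.17) were called toward leaf, and both calls were lost as deposited. That of GA20OX1 was also lost when either root Cd 2 or 3 or leaf Cd 2 or 3 was left out, with values of -1.34 without leaf Cd 3 and -3.01 without leaf Cd 1. Of 8 auxin response genes, 2 were higher in root and 2 in leaf. IAA17 was 2.89-fold higher in root, a call lost by source label (0.87, adjusted p = 0.105), and IAA7 2.69-fold higher in leaf, lost as deposited (-0.81, adjusted p = 0.0762). Of 8 abscisic acid, dehydration and cold genes, AREB1 (2.37-fold) and DREB3 (0.63 on the log2 scale) were higher in root and none higher in leaf. The other 6 did not pass, and the list median was -0.13, with a range from -1.77 to 1.25. ER5 (-1.77) passed toward leaf when only the 6 Cd arrays were fitted (adjusted p = 0.0293). The cold-response factor CBF1 (-1.31) passed toward leaf without root Cd 2 (-2.23, adjusted p = 0.00835).

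Of 14 cell cycle and histone genes, 8 were higher in root and 1, the kinase CDKA1, was higher in leaf (-0.58). The list median was 1.12, against 0.01 over all probe sets, of which 21.8% were called toward root and 24.2% toward leaf. The D-type cyclin CYCD3 was 3.69-fold higher in root (1.66 ± 0.24 against -0.22 ± 0.59; adjusted p = 0.00269). The mitotic cyclin CycB2 lay at background in leaf and was at least 2.89-fold higher in root (adjusted p = 0.00418). The calls were less firm for CDKB2 and CycA1. CDKB2 differed by 2.29 and lost its call under the removal of any array but leaf Cd 3, without which it was 3.19, and by source label (1.49, adjusted p = 0.118). CycA1 differed by 1.85 and lost its call without leaf Cd 1 (1.38, adjusted p = 0.0822), leaf Cd 2, root Cd 1 or root Cd 2, and by source label (1.11).

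KNOTTED-like homeobox genes keep cells in a dividing, unspecialised state. KN1 read -0.23, 0.66 and -0.25 in root and lay at background in leaf (at least 16.8-fold, adjusted p = 0.000824). KN4 and TKN3 were 7.66- and 6.13-fold higher in root. Without leaf Cd 1, TKN3 was at least 5.33-fold higher in root, with the other leaf arrays at background. A further member, T6 (synonym LeT6), was picked out after its values were seen: it lay at background in root and was at least 3.25-fold higher in leaf, or 2.12-fold as deposited (adjusted p = 0.00161). TCP3, of a family that controls leaf shape, read 0.95, 1.45 and 1.59 in leaf and -4.13, -3.77 and -4.26 in root (41.8-fold, adjusted p = 1.34e-08). WUS, a homeobox gene of stem cell niches, was at least 1.71-fold higher in leaf, or 1.12-fold as deposited. The MYB factor THM6 read -0.20, 0.32 and 0.12 in leaf and lay at background in root (at least 18.7-fold, or 12.2-fold as deposited; adjusted p = 8.39e-09), whereas THM16 was 3.43-fold higher in root.

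Of 23 starch and sucrose genes, 10 were higher in root, 6 higher in leaf (lin5 among them at background in both) and 7 did not pass. The sucrose synthases LOC543961 (synonym SUS1) and sus3, which split imported sucrose, were 6.90- and 4.58-fold higher in root, and the fructokinase FRK1 was 4.84-fold higher. AGPL3, a large subunit of the ADP-glucose pyrophosphorylase that starts starch synthesis, was 8.74-fold higher in leaf (adjusted p = 9.66e-05), and FRK3, another fructokinase, was 3.19-fold higher in leaf (adjusted p = 2.72e-06). The hexose and sucrose carriers HT1, HT3, SUT2 and SUT4, named after their values were seen, were all higher in root, by 0.67 to 1.34, and the hexose carrier HT2 did not pass.

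Chalcone synthases, which start flavonoid synthesis, were higher in leaf. CHS2 read -0.26, 1.8 and 2.32 in leaf and -4.35, -3.04 and -3.33 in root (difference -4.86 ± 0.70, adjusted p = 0.000235; -5.64 without leaf Cd 1). CHS1 lay at background in root and was at least 4.03-fold higher in leaf, or 2.63-fold as deposited (difference -2.54, and -1.72 without leaf Cd 3 and -3.27 without leaf Cd 1). THT1-3 and THT7-8, hydroxycinnamoyl transferases that make wall-bound amides, were higher in root, THT1-3 by 2.74 (1.94 without leaf Cd 2, 3.55 without leaf Cd 1). Of the 10 genes on this list, 2 were higher in root and 4 higher in leaf.

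Antioxidant enzymes, which remove the reactive oxygen that Cd is known to provoke, were split as 6 higher in root, 5 higher in leaf and 5 not passing among 16. DHAR1, which recycles ascorbate, was 4.96-fold higher in leaf (adjusted p = 4.9e-05), and the ascorbate peroxidase APX 2.89-fold. The glutathione S-transferases LOC543607 (synonym ctu2) and GST-T4 were 4.43- and 2.97-fold higher in root (adjusted p = 0.000975 and 0.00045). Among 9 heat shock genes, ER-SHSP, a small heat shock protein of the endoplasmic reticulum, was 6.92-fold higher in leaf (adjusted p = 0.000112). CPN21, a plastid chaperonin, was higher in leaf by 0.81, a call lost as deposited (-0.20). Hsp90-1 was 1.91-fold higher in root, a call lost by source label (0.48). The other 6 did not pass. HSP21 (-1.45), not called in the main fit, passed toward leaf when only the 6 Cd arrays were fitted (limma, adjusted p = 0.014). It also passed with the replicate block (adjusted p = 0.0389) and by source label (-1.37, adjusted p = 0.042).

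Of 10 ribosomal and translation factor genes, 9 did not pass after centring, with a median difference of 0.09 and a range from -0.39 to 0.31. As deposited, eIF-5A3, eIF-5A4, eIF4E1 and rpl38 were instead called higher in root, by 0.35, 0.23, 0.87 and 0.93. For rpl38 the root call was also made after quantile normalization (0.41, adjusted p = 0.0308), with array weights and by source label. LysRS, named for lysyl-tRNA synthetase and outside that list, read 1.51, 1.26 and 1.6 in root and lay at background in leaf (-4.65, -4.40 and -4.52), at least 44.2-fold lower there (adjusted p = 2.77e-10).

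Several of the largest differences belonged to genes without a description in the tables used. Mdip1 read 3.84, 3.32 and 3.95 in root and lay at background in leaf (at least 210-fold, adjusted p = 3.56e-09), and Dif54 was at least 45.2-fold higher in root. LOC544158 was 6.03 and LOC543895 5.40 higher in root. Without leaf Cd 3, LOC544158 was at least 72.7-fold higher in root, with the other leaf arrays at background. LOC543895 varied in leaf (0.07, -4.78 and -2.65) and was 4.24 without leaf Cd 2 and 6.66 without leaf Cd 1. LOC543989 read 3.56, 3.52 and 2.62 in leaf and lay at background in root, at least 167-fold higher in leaf, or 109-fold as deposited (adjusted p = 3.52e-09). LOC544001 read 3.37, 2.61 and 4.23 in leaf and -4.46, -4.76 and -4.32 in root (difference -7.92). Root Cd 3 was its only root array above background, and without it the leaf level was at least 173-fold higher. LOC543656 differed by -6.08 (at least 68.8-fold without root Cd 2, the only root array above background) and LOC543604 by -4.15, and Prg1 was at least 36.5-fold higher in leaf, or 23.8-fold as deposited.

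Most of the array carries no symbol, and 92 such probe sets were called at least 16-fold higher in root and 84 in leaf. The largest fitted difference belonged to one of them, at 4.70, 4.82 and 4.56 in leaf and -4.28, -4.84 and -3.97 in root (-9.06 ± 0.22, adjusted p = 3.56e-10). The next toward leaf differed by -8.63. In each of these 2, only 1 of the 3 root arrays lay above background, so the size of the difference depends on the background level. Toward root, the 2 unnamed probe sets with the largest fitted differences lay at background in leaf and were at least 201-fold (difference 8.44) and 240-fold (8.39) higher in root.

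Setting the organ difference under Cd beside that without Cd asked which part of it was measured in the controls too. The controls gave 4343 calls, 2203 toward root and 2140 toward leaf. Of the Cd calls 3131 were also control calls in the same direction, which is 67.9% of the Cd calls and 72.1% of the control calls, and 33 were called in opposite directions. Of the 907 differences of at least 4-fold under Cd, 586 (64.6%) were at least 4-fold in the controls too. Across the 10038 probe sets the organ differences with and without Cd, which share no array, correlated at 0.877, as a description across genes that are not independent. The median absolute difference was 0.47 with Cd and 0.43 without.

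Leading genes described above were mostly apart in the control organs too. The control difference was 7.89 for ST1, 7.24 for FER, 5.35 for NRAMP1 and 3.53 for PT2. It was 6.84 for the aquaporin TIP, 5.96 for MT2, 5.15 for opr2 and 5.74 for the peroxidase TPX2. Toward leaf it was -3.04 for FRO1, -3.06 for CAB5, -4.86 for P69A, -8.13 for CEVI-1, -5.05 for CHI17 and -8.17 for LOC543989. For ext1 it was 2.35, beside 5.03 under Cd, and for KN1 it was 1.31 and did not pass (adjusted p = 0.209), beside 4.58 under Cd. Control leaves lay at background for ST1, FER, NRAMP1, PT2, TPX2 and ext1, and control roots for P69A, CEVI-1 and LOC543989, so these control differences depend on the background level. None of these 16 genes passed the test of the change in organ difference, whose lowest adjusted p among them was 0.0723, for NRAMP1.

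Few probe sets passed the test of the change itself. The organ difference with Cd minus that without Cd passed at 82 of 10038 probe sets (0.817%), 21 with a positive and 61 with a negative change, and 1601 had an unadjusted p under 0.05. Of the 1448 probe sets called with Cd but not without it, 18 passed this test, so the rest are not shown to differ from the controls. The count of 82 was 41 without root Cd 1, 53 without leaf Cd 2 and 169 without leaf Cd 3, which had the lowest array weight of the 6 Cd arrays (0.162). With array weights the count was 622, and with a replicate block, which pairs same-numbered root and leaf arrays, it was 3. With the source labels taken as true this comparison has no leaf Cd group.

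Of the 801 named genes 11 passed, and those outside the 10 largest changes were named after their values were seen. With the replicate block only SODCP.2 of the 11 passed (limma, adjusted p = 0.0445), and with array weights all 11 did. ACO5, ACO6, EXP2, LOC544276, LOC544070 and SODCP.2 passed with each of the 6 Cd arrays left out in turn. The other 5 lost the call without some array: LOC544282 without leaf Cd 2 (adjusted p = 0.0592), LOC543717 and LOC543602 without leaf Cd 2, root Cd 1 or root Cd 2, LOC543602 also without leaf Cd 1, sbt3 without any array but leaf Cd 1, and DREB3 without any but leaf Cd 3. ACO5 had the largest fitted change of the 11. Control roots read 4.12, 4.82 and 3.90 and control leaves -4.25, -4.23 and -4.35, at background, against leaf Cd values of 0.92, 2.22 and 1.73. Its organ difference was 8.56 in the controls and 2.87 under Cd (change -5.69 ± 0.51, adjusted p = 0.00108), the control value being computed against leaves at background. With all 6 leaf arrays taken as untreated, its difference was 5.82. For ACO6 the leaf excess was larger under Cd, at -4.96 against -3.30 in the controls (change -1.67, adjusted p = 0.0118).

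For LOC544276 (synonym ICL, a symbol used for isocitrate lyase), control roots read -1.23, -3.12 and -2.54 and control leaves 2.26, 3.23 and 2.37. Under Cd the roots read 2.75, 2.12 and 2.03 and the leaves 3.49, 3.23 and 3.10. The organ difference was -4.92 in controls and -0.97 under Cd, which did not pass by itself (adjusted p = 0.0844) but passed when only the 6 Cd arrays were fitted (adjusted p = 0.0185; change 3.95 ± 0.60, adjusted p = 0.0171). EXP2, an expansin, read -1.07, -1.27 and -1.30 in control roots and 2.78, 3.02 and 2.32 in control leaves, and under Cd -0.48, 0.11 and -0.92 in root and -1.70, 0.34 and -0.66 in leaf. Its control difference was -3.92. Under Cd the organs overlapped and the difference of 0.24 did not pass (change 4.16 ± 0.61, adjusted p = 0.0144), and by source label it was -1.45, also not called.

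SODCP.2, listed as a plastid copper/zinc superoxide dismutase, read 4.34, 4.45 and 4.08 in control leaves and 0.37, 0.56 and 0.81 in leaf Cd. Its difference was -3.91 in controls and -1.08 under Cd (change 2.83 ± 0.28, adjusted p = 0.00171). LOC544282 lay higher in leaf under Cd (-1.24, -1.92 and -3.71 in root, 0.43, 1.01 and 1.23 in leaf; difference -3.18, adjusted p = 0.00121). In the controls it differed by 1.53 the other way, which did not pass (change -4.71, adjusted p = 0.0323). Its Cd difference was -2.47 without root Cd 3, and by source label it was -1.18 and not called (adjusted p = 0.407). The remaining 5 were LOC543602 (synonym Eli3; change 3.21), LOC544070 (-2.43), LOC543717 (synonym TSB; 1.64), sbt3 (1.63) and DREB3 (-0.99).

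**Figure D4:**
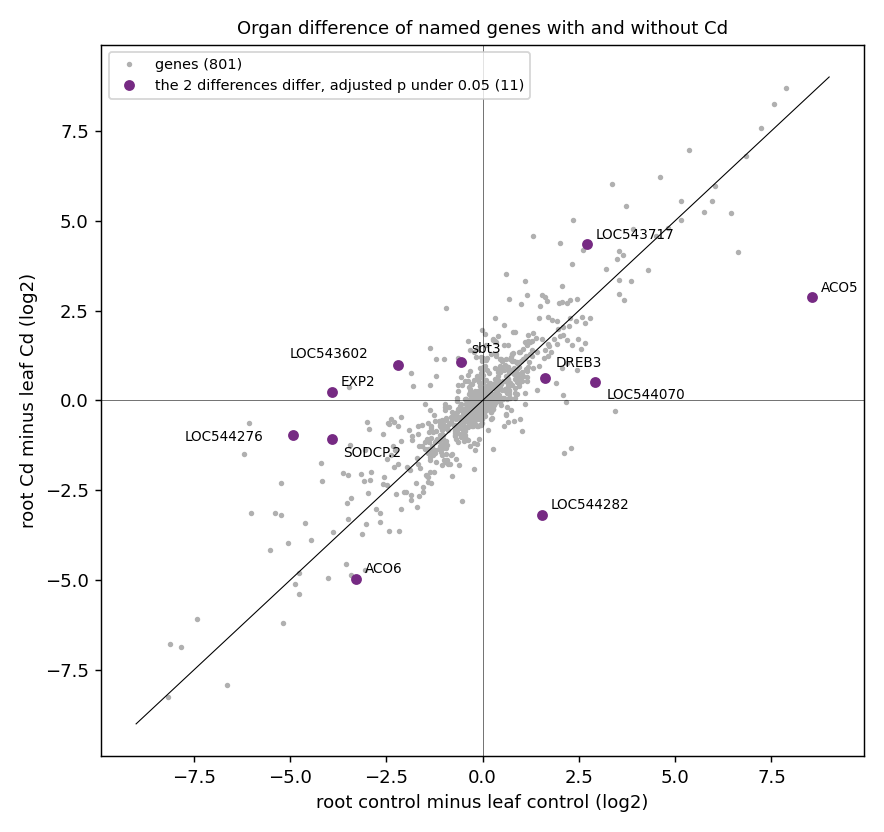
Organ difference (root minus leaf, log2, array medians at 0) of the 801 named genes in the controls on the x axis and under Cd on the y axis; the line marks equal differences. Purple points are the 11 genes whose 2 differences differed at an adjusted p under 0.05. Most genes lie along the line; ACO5 lies far to its right, at 8.56 and 2.87, and EXP2 and LOC544276 lie above it.

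Large changes that did not pass included P4, with organ differences of -6.07 in controls and -0.64 under Cd (change 5.44, adjusted p = 0.109), and PR1b1, with -6.19 and -1.48 (change 4.71, adjusted p = 0.0517). Both are PR-1 defence proteins, and both passed without root Cd 1 (adjusted p = 0.0355 for P4 and 0.00734 for PR1b1). PR1b1 also passed with the filter on dim probe sets (limma, adjusted p = 0.0493). The Cd difference of PR1b1 was -0.57 without root Cd 1 and -2.28 without root Cd 2. Another probe set of PR1b1, at background in root, differed by -0.08 under Cd (not called). HSP21 (-3.56, adjusted p = 0.0798), the threonine deaminase TD2 (3.85), LOC543598 (-3.74) and the cold-response factor CBF1 (-3.61) did not pass either, though CBF1 passed without root Cd 2 (adjusted p = 0.029) and HSP21 with array weights (adjusted p = 0.0365).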

How the data were processed

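RNA of 12 samples (4 groups of 3) was read on Affymetrix tomato arrays with 1 channel; per the labels' protocols, total RNA was made into biotin-labelled cRNA. The authors deposited log2 values, 1 for each probe set (lowest 1.55, highest 13.29). Per the submitters' processing notes, MAS5 and RMA were used, in roles not given in the sources used here. Of 10209 probe sets, 171 controls were left out. Each array was centred on its own median. Group means were fitted with limma 3.58.1 (R 4.3.3) over 12 arrays; p-values are two-sided and Benjamini-Hochberg adjusted over 10038 probe sets. Tables and plots used Python 3.11.15, pandas 2.3.3 and matplotlib 3.10.9. Precision is limited by the number of arrays.

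Gene symbols are those of the array annotation; 885 of 909 named probe sets matched a current gene table. For 82 genes with several probe sets, that with the highest mean over the 12 arrays was used; 1 symbol of several records was left out. The background rule was chosen after values were seen: a gene at or below the highest negative control on all 3 arrays of a group is at background, and a bound is the mean of the brighter group minus that control level.

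The comparison and the gene lists were chosen with earlier results of these data known, and lists were completed by symbol once the annotation had been read. Named genes are the 15 largest called differences each way whose groups do not overlap, up to 4 members of each list by absolute difference, the 10 largest changes in organ difference, 2 unnamed probe sets each way, and the organ markers. Further members, named to complete a list's count or description, were chosen after their values were seen. In a simulation of the organ comparison on 10038 probe sets, 65 of 100 differences set at 1 (log2) and 94 of 100 set at 2 were recovered, with 12 false calls. It drew independent normal noise with the same SD in all groups and set no other differences. In the data 45.9% of probe sets were called and leaf Cd varied most, so these rates need not hold there. Alternatives were the deposited scale, quantile normalization, a fit of the 6 Cd arrays, array weights, a replicate block, a filter on dim probe sets (above background on 3 arrays), grouping by source label, each Cd array left out, a test against 2-fold, and other probe sets of a gene.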

Additional observations from a re-analysis of the deposited data

Results flagged for a closer look

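Among the named genes with the largest changes, 4 had an organ difference with Cd unlike that without it, by the interaction test in limma over all probe sets. For ACO5 the organ difference with Cd minus that without was -5.69 (adjusted p = 0.00108), with a root excess in both and control leaves at background. For LOC544282 it was -4.71 (adjusted p = 0.0323), with the difference toward leaf under Cd and toward root in the controls. For EXP2 it was 4.16 (adjusted p = 0.0144) and for LOC544276 it was 3.95 (adjusted p = 0.0171), both with a leaf excess in the controls that did not pass under Cd in the fit of all 12 arrays (LOC544276 passed when only the 6 Cd arrays were fitted). All 4 rest on the titles of the leaf Cd arrays, whose source label says otherwise. With the replicate block all 4 lost the call (adjusted p from 0.055 to 0.111). LOC544282 also lost it without leaf Cd 2 (adjusted p = 0.0592).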

How the results depend on the processing

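As deposited, 7346 probe sets were called (6193 toward root, 1153 toward leaf), and 3591 by at least 2-fold. Against a 2-fold difference 1011 passed, 362 toward root and 649 toward leaf. Leaving out 1 Cd array gave 3667 to 4564 calls. The change in organ difference passed at 82 probe sets, at 622 with array weights, and at 41 to 169 with 1 Cd array left out. The labels do not say whether replicate numbers pair root with leaf arrays. Deviations of same-numbered Cd arrays from their group means correlated at 0.02, -0.02 and -0.14. Root and leaf of a pair need not deviate alike, so these values cannot settle it. With the replicate block 4024 organ calls and 3 changes passed, among them 1 of the 11 named genes (SODCP.2); with array weights all 11 passed. Among genes called in at least 1 fit, direction turned as deposited for AMT1-2 (0.55), MT4 (0.17), NHX1 (0.10), NRAMP3 (0.12), eIF-5A3 (0.35) and eIF-5A4 (0.23), by source label for NRAMP3 (0.12), and at other probe sets for ARG2 (0.46) and MT4 (0.47 and 0.12). EXP2, DXR, P4, TD2 and LOC543598, among other genes not called in the main fit, also changed sign under a setting. By source label the differences moved by more than 1.5-fold for ACO5 (5.82), KN1 (3.5), XTH7 (-4.36), GA20OX1 (-3.23), ER-SHSP (-1.76) and HY5 (2.01), among others, and these 6 kept their calls. Deposited values are 0.62 higher for root minus leaf by construction; the other causes were not tested. Of 127 called genes followed over 13 settings, 101 kept their call in all of those. Of 106 further probe sets of named genes, 36 were called in the same direction as the one used, 1 in the opposite direction, 38 in neither and 31 in 1 of the 2.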

Other observations

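Some of the larger organ differences lay outside the lists and were picked out after their values were seen. In root, the proline-rich protein gene TPRP-F1 was 23.9-fold higher (adjusted p = 0.00153), RSI-1, known as an auxin-induced gene of lateral root formation, 18.1-fold higher (adjusted p = 0.000302), and the alcohol dehydrogenase ADH2 17.5-fold higher (adjusted p = 2.49e-05). ADH2 read 4.38, 4.37 and 4.28 in root Cd and -0.27, 0.29 and 0.64 in leaf Cd, and its organ difference in the controls was 6.62. RBOH1, an NADPH oxidase that makes superoxide at the plasma membrane, was 4.23-fold higher in root (adjusted p = 4.76e-06). Without leaf Cd 1 it was at least 2.98-fold higher in root, with the other leaf arrays at background. In leaf, the malate dehydrogenases gMDH and chMDH were 4.79- and 4.30-fold higher (adjusted p = 0.00019 and 0.00021), and the ribonuclease gene RNALE 9.94-fold higher (adjusted p = 0.00259).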
